A study of Arabidopsis thaliana with 8 samples.

Results

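The tau and phi glutathione transferases are the 2 large plant classes of this enzyme family. They were taken as all nuclear protein-coding genes whose symbol or synonym in the annotation is GSTU or GSTF followed by a number, which gave 41 of 27444 genes: 28 tau genes, 12 phi genes, and the theta gene GSTT1, which carries GSTU12 as a synonym. GSTU17 is listed there under the symbol ERD9. The gene with the symbol ATGSTF13 falls outside these names. ATGSTF13 had no reproducible site within 16108 bp and a single summit nearby, of ARR12-GFP replicate 2, at 319 bp with a score of 3.49.

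Binding of ARR12, a transcription factor of the B-type response regulators through which cytokinin changes gene expression, was mapped by ChIP-seq with an anti-GFP antibody in root meristem tissue of Arabidopsis thaliana. Plants carrying an ARR12-GFP fusion and control plants, named Col-0 in the series' design text and GFP in the sample titles, each gave 2 independent biological replicates. Both groups are of the Col-0 ecotype, were stratified for 5 days and were grown at 22 °C in long days, and the labels give 3 days after germination as the stage. The labels do not give the promoter of the fusion or the number of transgenic lines, and they name no hormone treatment. On the 5 nuclear chromosomes, 8137 and 5492 summits were listed for ARR12-GFP replicates 1 and 2, and 199 and 251 for those of Col-0. A summit is the highest point of a called peak, and its score is the authors' −log10 value, used here only to rank summits within 1 list. The lists carry no read numbers and no expression values, so depth is unknown and the tissue label could not be checked against marker genes. As the chromatin of a whole tissue was pooled, binding in few cells and weak binding in many cannot be told apart.

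Glutathione transferases join the tripeptide glutathione to reactive or toxic molecules, and the conjugates are moved into the vacuole. The tau and phi classes are known for handling herbicides, products of oxidative stress and secondary metabolites, and some members act as carriers that bind small molecules without conjugating them. Many of the genes lie in tandem arrays, and a number of them are known to respond to hormones and stress. Cytokinin, the hormone upstream of ARR12, restricts the size of the root meristem by promoting differentiation at its boundary.

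A gene was counted as near a summit when the summit lay inside it or within 1500 bp of either end in TAIR10. Summits of replicate 1 were near 16 of the 41 genes (39.0%), against 28.1% of all genes, and summits of replicate 2 were near 19 (46.3%), against 19.6%. A reproducible site, meaning linked summits of both ARR12-GFP libraries within 200 bp and no Col-0 summit within 200 bp, was near 10 genes (24.4%), against 14.0% of all genes. The family was chosen by these same summits, that is, on the number of its genes near them, so the counts are given without a test. No gene of the family was near a summit of Col-0 replicate 1, against 0.503% of all genes, or of Col-0 replicate 2, against 0.590%. The nearest Col-0 summit to any of the 41 genes lay 14739 bp from GSTU17, and the median distance was 279308 bp. The family's genes were shorter than others, with a median length of 1341 bp against 2078 bp, so a smaller span was searched per gene.

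All 10 genes with a reproducible site were tau genes, 10 of 28 (35.7%). None of the 12 phi genes had one, against 14.0% of all genes. On single libraries the phi class was not empty, with replicate 1 summits near 3 of 12 genes (25.0%) and replicate 2 summits near 5 of 12 (41.7%), against 13 (46.4%) and 14 (50%) of the 28 tau genes. Beside the 28.1% and 19.6% of all genes, the phi share was lower for replicate 1 and higher for replicate 2. The absence of phi sites held with summits linked within 200 bp and 1500 bp searched. With 3000 bp searched, 1 of the 12 phi genes had a site, where 20.4% of all genes had one. With summits linked within 500 bp, 2 of the 12 phi genes had a site, where 15.9% of all genes had one. These were the neighbours GSTF9 and GSTF10, which share the same pair of summits. Whether tau and phi genes differ was not tested, since their choice rests on the same summits and neighbouring genes share sites. Of the cytochrome P450 genes, another large family of detoxification and specialised metabolism, 34 of 234 (14.5%) were near a reproducible site, close to the 14.0% of all genes. Summits of replicate 1 were near 35.0% of the P450 genes, against 28.1% of all genes, and summits of replicate 2 near 20.1%, against 19.6%.

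**Figure D1:**
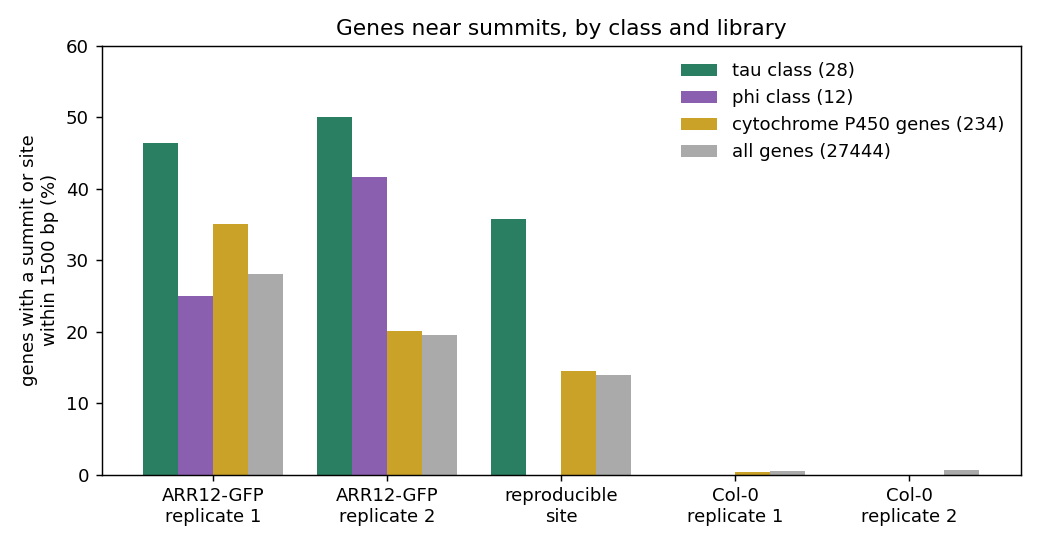
Share of genes with a summit inside the gene or within 1500 bp, in percent, for each anti-GFP library and for reproducible sites. Bars give 28 tau genes, 12 phi genes, 234 cytochrome P450 genes and all 27444 genes; for reproducible sites the tau bar stands at 35.7%, the phi bar at 0 and the bar of all genes at 14.0%.

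The count of 10 genes rested on few places in the genome. Members within 10 kb of each other form 9 arrays with 29 genes, and 12 genes stand alone, which makes 21 loci. Reproducible sites were found at 5 of the 21 loci (23.8%): the array of GSTU7 to GSTU1 on chromosome 2, the arrays of GSTU24 to GSTU26, GSTU12 with GSTU11 and GSTU23 to GSTU19 on chromosome 1, and GSTU8 alone on chromosome 3. An array covers a longer span than a gene, and no share was counted over other loci. The share per locus is thus not comparable with the 14.0% per gene. The chromosome 2 array supplied 5 of the 10 genes. Among the 34 genes outside it, 5 had a site (14.7%), near the 14.0% of all genes, 9 were near a replicate 1 summit (26.5%) and 13 near a replicate 2 summit (38.2%). Without the array, the shares with a site and near replicate 1 summits were thus close to those of all genes, and the share near replicate 2 summits was still above 19.6%. These shares pool the classes: all 5 genes with a site were tau genes, and the 34 include the 12 phi genes and GSTT1, none with a site.

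**Figure D2:**
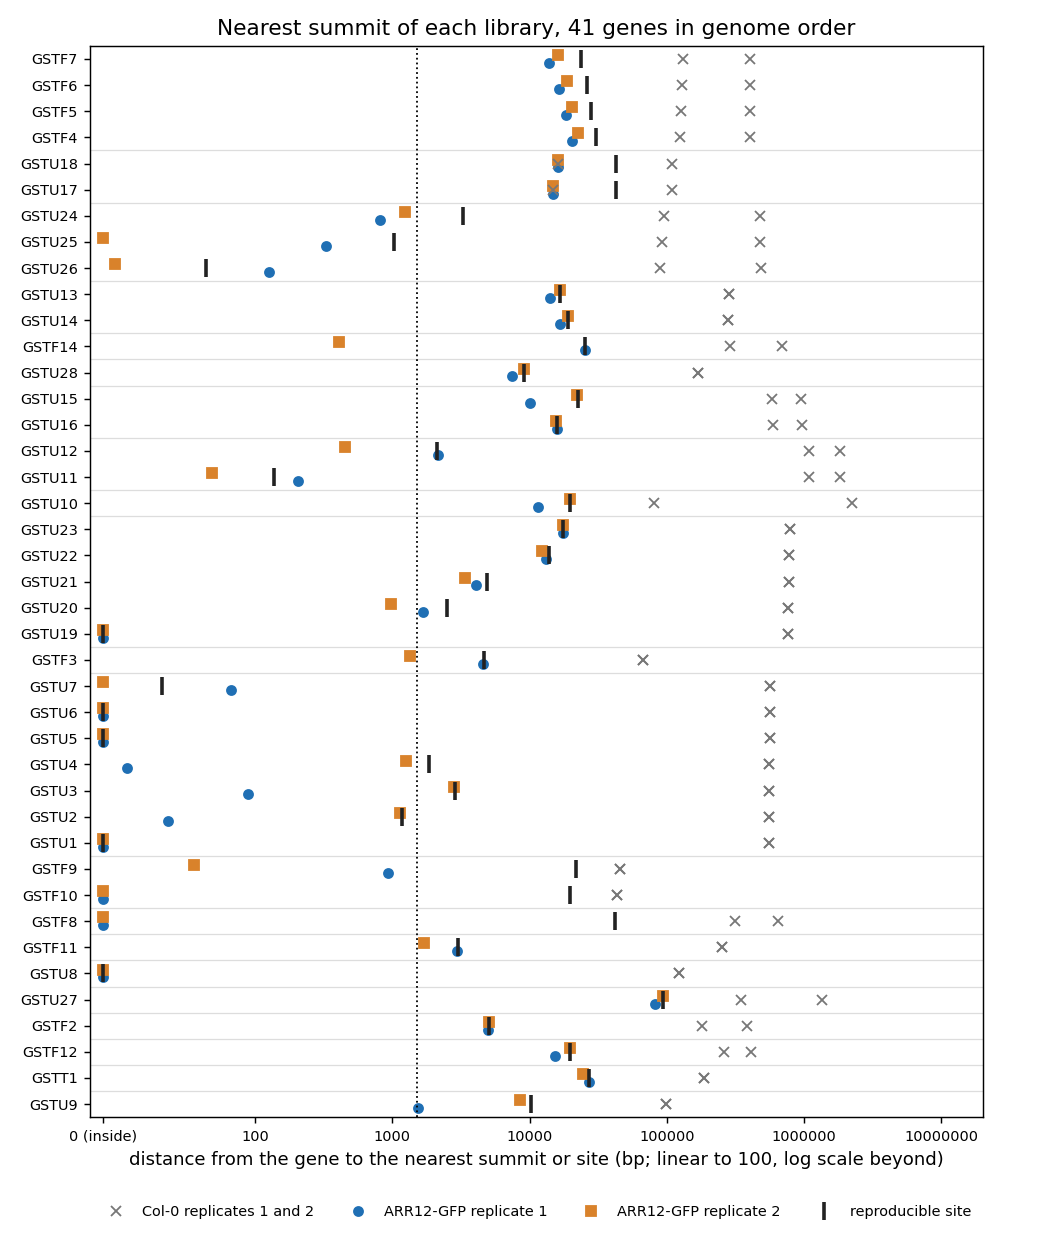
Distance in bp from each of the 41 genes to the nearest summit of each library and to the nearest reproducible site, on an axis that is linear to 100 bp and logarithmic beyond; genes are in genome order, grey lines part the 21 loci and the dotted line marks 1500 bp. ARR12-GFP points left of the dotted line gather mostly in the array GSTU7 to GSTU1 and at GSTU24 to GSTU26, GSTU19, GSTF9 with GSTF10, the separate locus GSTF8, and GSTU8. No Col-0 point lies nearer than 14739 bp.

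The array of 7 tau genes from GSTU7 to GSTU1 spans 14.6 kb. Within it and 1500 bp on either side lay 11 summits of replicate 1, 7 of replicate 2, 6 reproducible sites and 0 Col-0 summits. That is 3.41 sites per 10 kb, where the mean over the nuclear chromosomes was 0.294. This mean covers all sequence, not only stretches around genes. The array had the most sites of the 21 loci in a family chosen on these summits, so the density is described and not tested. The highest-scoring site of the array lay at position 12621296 of chromosome 2, 65 bp outside GSTU6 on the side facing GSTU5, with scores of 38.4 in replicate 1 and 30.0 in replicate 2. These stood at the 93.7th and 97.0th percentiles of their lists, and the summits of both libraries were 3 bp apart. It was the site with the closest pair of summits among the 11 of the family.

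GSTU6 had 3 reproducible sites in its window, a number reached by 0.273% of all genes. Besides the one above, a site at 12619884 lay inside GSTU6, 254 bp from its edge, and within the overlapping gene AT2G29430. Its scores were 7.61 and 17.6, at the 34.6th percentile of the replicate 1 list and the 87.9th of the replicate 2 list. The third lay at 12618938, 692 bp from GSTU6 but only 39 bp from GSTU7, with scores of 3.00 and 6.35. The first of these scores is near the bottom of its list, at the 0.565th percentile, so this site is the least secure of the array. GSTU7 had the sites at 39 and 985 bp, both of which it shared with GSTU6, and the former was also within 951 bp of MTPB1, a gene annotated as a metal tolerance protein.

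GSTU5 held a site at 12624623, 220 bp inside the gene, with scores of 8.82 and 11.5. Its summits lay 192 bp apart, the widest pair in the family and just inside the 200 bp limit. At the other end of the array GSTU1 held a site at 12632494, 44 bp inside the gene, with scores of 24.1 and 16.1, at the 84.3rd and 85.7th percentiles. The same site lay 1173 bp from GSTU2 and was the only one of that gene, whose window was otherwise touched by replicate 1 summits alone. GSTU2 was the member furthest from its site among those counted. A further site at 12633559, with scores of 6.10 and 8.77, lay 1021 bp from GSTU1 but inside the neighbouring gene AT2G29500, so the nearest gene was no member.

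The middle of the array differed between the libraries. GSTU4 had replicate 1 summits at 16, 179 and 593 bp with scores of 6.24, 8.64 and 5.89, while its nearest replicate 2 summit lay at 1261 bp with a score of 5.53. The closest pair of these summits was 668 bp apart, and the nearest reproducible site was at 1855 bp, the first beyond the limit among all members. GSTU3 had replicate 1 summits at 95 and 515 bp, scoring 7.16 and 6.24, and no replicate 2 summit within 2825 bp. It was the only member near a summit of replicate 1 alone, a state found in 11.3% of all genes. The replicate 1 summits between GSTU5 and GSTU2 all scored below 10.1, the median of their list, which was taken over all its nuclear summits.

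**Figure D3:**
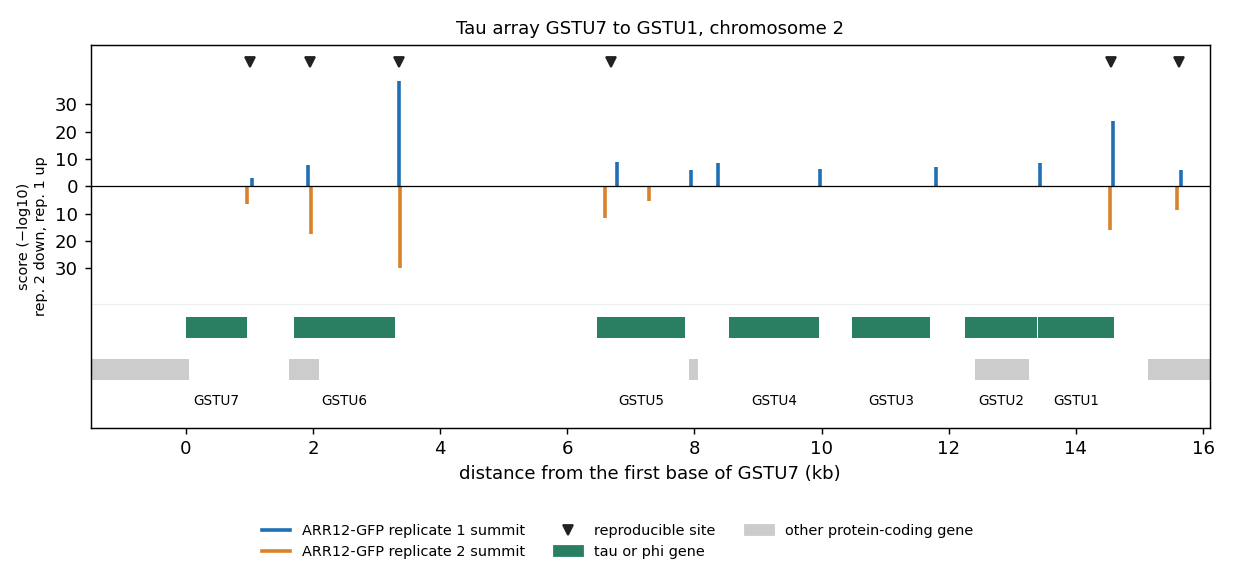
Map of the tau array on chromosome 2 with distance from the first base of GSTU7 in kb; lines give the score of each summit, upward for ARR12-GFP replicate 1 and downward for replicate 2, triangles mark reproducible sites, and boxes mark genes without strand. The 6 sites lie in or beside GSTU7, GSTU6, GSTU5 and GSTU1. GSTU3 has summits of replicate 1 alone in its window, and the replicate 2 summit nearest to GSTU4 lies 1261 bp from it, inside GSTU5.

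The strongest site of the family lay in another tau array, on chromosome 1. GSTU24 and GSTU25, whose products are known to detoxify the explosive TNT, and GSTU26 lie in this order. At 5875227, between GSTU25 and GSTU26 and 68 bp outside GSTU26, the scores were 60.9 and 32.2, at the 98.3rd and 97.4th percentiles, with the summits 119 bp apart. A weaker site in the same gap, at 5874145, scored 5.56 and 5.32 and was shared by GSTU25 at 1021 bp and GSTU26 at 1150 bp. GSTU25 was counted through this weak site only, although a replicate 2 summit scoring 4.55 also lay inside the gene. GSTU24 was near summits of both libraries, at 813 bp with a score of 7.25 and at 1243 bp with a score of 4.55, but they lay 430 bp apart and gave no site. Both were nearer to GSTU25: the replicate 1 summit lay 328 bp from it, and the replicate 2 summit is the one inside it. GSTU25 had a further replicate 2 summit at 59 bp with a score of 3.39.

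GSTU19 encodes an abundant tau enzyme with high activity towards model substrates, and it was the only one of its 5-gene array with a site. The site lay at 29487881 of chromosome 1, 126 bp inside the gene, with scores of 21.0 and 22.3, at the 80.8th and 92.8th percentiles. Its neighbour GSTU20, known for a part in glucosinolate synthesis, had a single summit, of replicate 2, at 979 bp with a score of 5.19. That summit also lay 19 bp from GSTU19. GSTU21, GSTU22 and GSTU23 had no summit of either library in their windows, with nearest ARR12-GFP summits at 3359, 12365 and 17567 bp. In this array the summits of both libraries were thus at one end. In the chromosome 2 array sites lay from GSTU7 to GSTU5 and at GSTU1, and between these only replicate 1 had summits beside GSTU3.

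Of the remaining tau genes with a site, GSTU8 on chromosome 3 stands alone. Its site at 2849614 lay 72 bp inside the gene with scores of 18.9 and 11.0. Replicate 1 also had a summit of score 19.1 at 147 bp and one of 32.2 at 1437 bp, and replicate 2 had one of 10.7 at 1038 bp, none of which were linked. GSTU11 on chromosome 1 had a site at 26338956, 138 bp outside the gene, with scores of 8.78 and 5.09 that stood at the 42.4th and 22.5th percentiles. GSTU12, next to it, had a replicate 2 summit at 454 bp with a score of 6.0 and no replicate 1 summit within 2142 bp. Neither the GSTU8 site nor the GSTU11 site was shared with another member.

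Phi genes had high-scoring summits that were not linked. GSTF8, a stress-inducible gene whose promoter is used as a reporter in roots, had a replicate 1 summit of score 32.5 and a replicate 2 summit of score 23.3 inside the gene, at the 90.7th and 93.8th percentiles. They lay 601 bp apart, within a gene of 3160 bp. GSTF10 held summits of score 20.4 in replicate 1 and 13.3 in replicate 2, at the 79.7th and 79.5th percentiles, 216 bp apart and so just outside the limit of 200 bp. The same pair lay 931 and 1147 bp from its neighbour GSTF9, which also had a replicate 2 summit at 60 bp with a score of 6.58. Summits of both libraries were near 15 members (36.6%), against 16.9% of all genes. The 3 phi genes and the tau genes GSTU24 and GSTU4 were the 5 members near summits of both libraries but near no site (12.2%), against 2.99% of all genes. With summits linked within 500 bp, GSTF9, GSTF10 and GSTU24 had a site, and GSTF8 and GSTU4 did not.

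**Figure D4:**
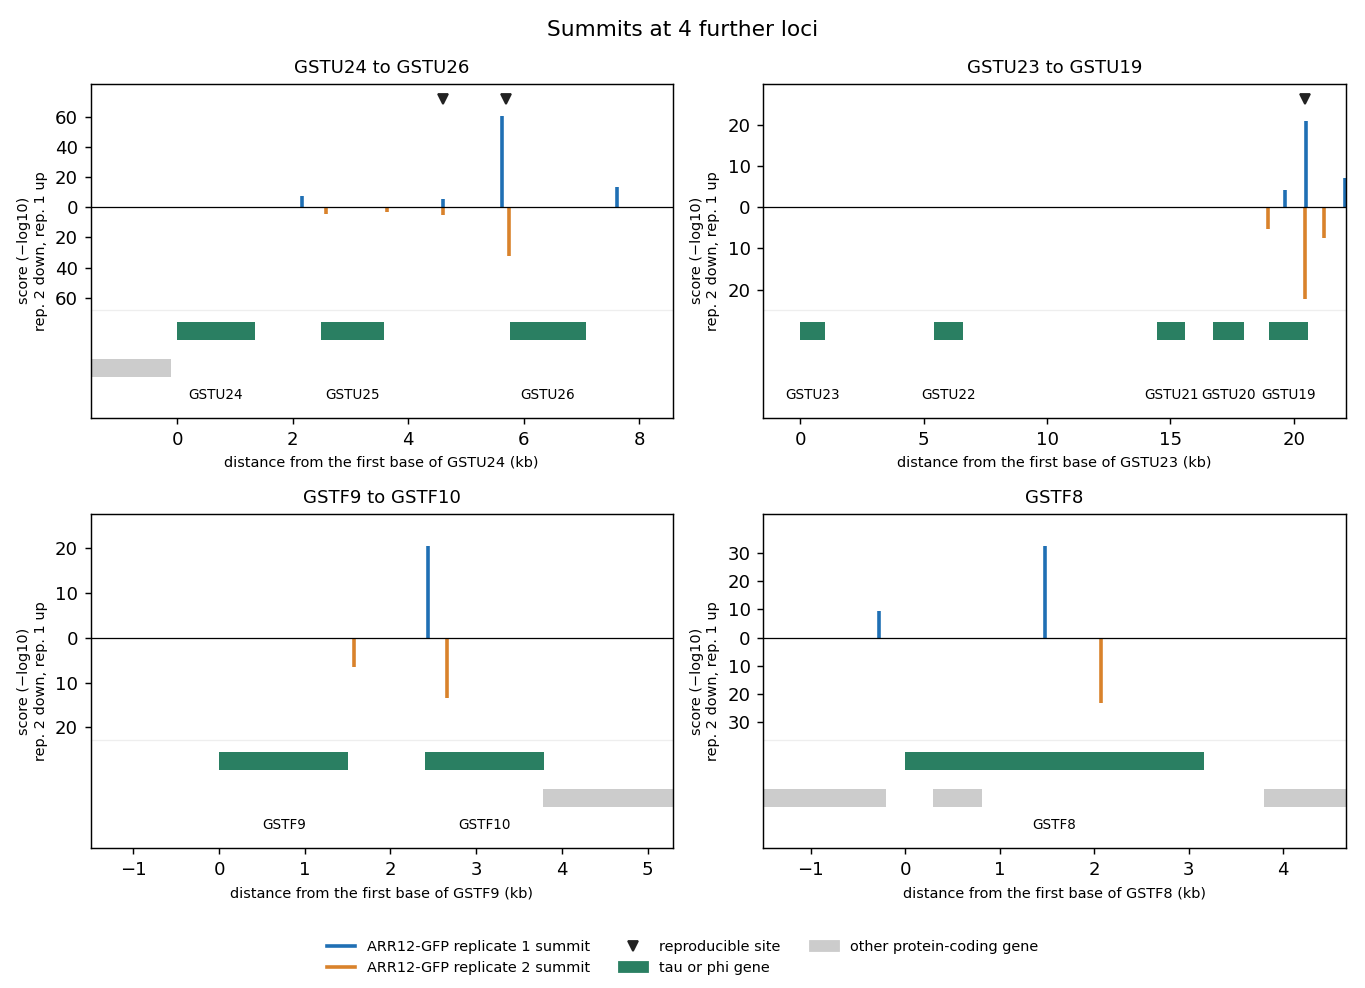
Maps of the loci GSTU24 to GSTU26, GSTU23 to GSTU19, GSTF9 with GSTF10, and GSTF8, with distance from the first base of the first gene in kb and the score of each summit upward for ARR12-GFP replicate 1 and downward for replicate 2. Triangles mark the 2 sites near GSTU26 and the 1 site in GSTU19; at GSTF10 and GSTF8 the tallest lines of both libraries stand 216 and 601 bp apart without a site.

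Replicate 2 alone had a summit near 4 members (9.76%), against 2.77% of all genes. They were GSTU12 and GSTU20, described above, GSTF14 with a summit of score 4.91 at 408 bp, and GSTF3 with one of 6.82 at 1347 bp. All 4 summits lay below the median score of their list, 7.55. The family had fewer genes near a replicate 1 than near a replicate 2 summit, 16 against 19, although the replicate 1 list is longer. The gap varied with the distance searched, but replicate 1 was not ahead at any of the distances used. Summits of replicates 1 and 2 lay inside 7 and 9 members. With 500 bp each library had a summit near 14 members, and with 3000 bp the counts were 20 and 21. Shares of all genes near summits of 1 library were not counted at 500 or 3000 bp, so these values compare the libraries only.

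The other 21 members (51.2%) were near no ARR12-GFP summit, against 69.1% of all genes. They comprise 13 tau genes, 7 phi genes and GSTT1, and their nearest ARR12-GFP summits lay between 1541 bp for GSTU9 and 81751 bp for GSTU27. The phi array GSTF7 to GSTF4 on chromosome 1, which includes the camalexin synthesis gene GSTF6, had no summit of either library within 13877 bp. GSTF12, known as the carrier that brings anthocyanins to the vacuole, had none within 15247 bp. GSTU18 and GSTU17, the latter with a known part in light and drought signalling, had theirs at 16085 and 14680 bp, next to the Col-0 summit at 16144 and 14739 bp from the same genes. For GSTU13 with GSTU14 and for GSTU15 with GSTU16, the nearest lay at 14053 and 10112 bp. Arrays of tau genes were found with many summits and with none.

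Some genes without a site lay in the wider surroundings of one. GSTF11, known for glucosinolate synthesis, was 3000 bp from a site, and its nearest replicate 2 summit at 1689 bp was the first beyond the limit in that library. In replicate 1 the first beyond it was GSTU9 at 1541 bp, and the furthest nearest summits inside it were those of GSTF9 at 931 bp in replicate 1 and of GSTF3 at 1347 bp in replicate 2. GSTF2, whose product binds auxin and camalexin, was 5017 bp from its nearest site, at which the nearest summits scored 48.8 and 16.4. With 3000 bp searched, 15 members (36.6%) had a site, against 20.4% of all genes.

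Where the 11 sites lay and how they ranked was compared with the 2982 reproducible sites near other protein-coding genes only. Inside a protein-coding gene lay 6 of 11 sites (54.5%), against 34.2%, and 5 members held a site (12.2%), against 3.52% of all genes. Replicate 1 summits lay inside 7 members (17.1%), against 7.74% of all genes, and replicate 2 summits inside 9 (22.0%), against 6.31%. Shares above those of all genes were also found inside cytochrome P450 genes, with 6.84% for sites, 13.2% for replicate 1 and 10.3% for replicate 2. The sites inside members were 44 to 254 bp from the nearer gene edge, and strand was not available, so the 5′ and 3′ ends are not told apart. In the replicate 1 list the median percentile of the score was 42.6 for the 11 sites and 70.5 for the others, and 5 of 11 stood above the middle of the list. In the replicate 2 list the medians were 74.3 and 57.7, and 8 of 11 stood above the middle. The lists differ in length, so a rank in one is not a level relative to the other, and the 11 sites come from 5 loci.

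**Figure D5:**
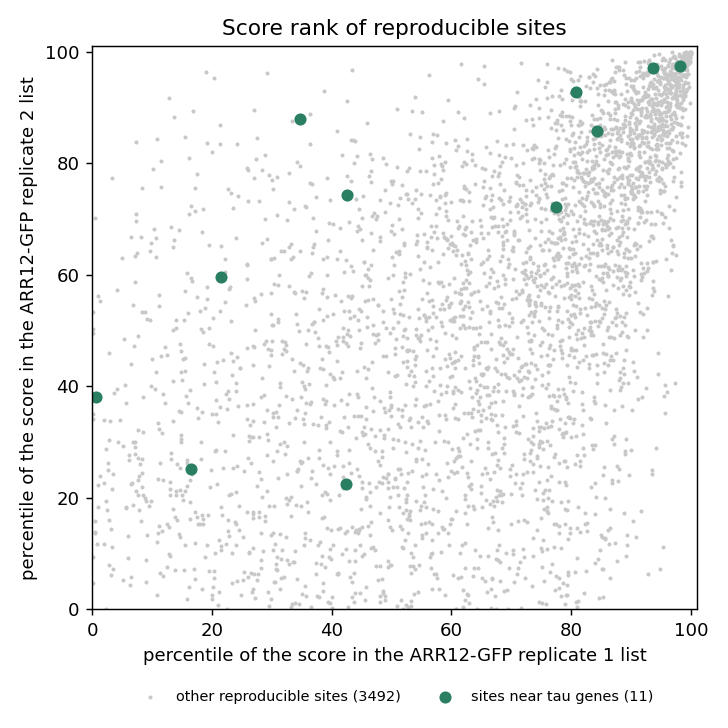
Percentile of the score in the ARR12-GFP replicate 1 list (horizontal) and replicate 2 list (vertical) for each of 3503 reproducible sites; large points are the 11 sites near tau genes and small points all others. The highest-scoring site of GSTU26 and that of GSTU6 stand at the top right above the 93rd percentile in both lists, and 6 of the 11 lie left of the 43rd percentile of replicate 1.

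Sharing of sites was common in the family. Of the 11 sites, 4 lay in the windows of 2 members each: those of GSTU25 with GSTU26, of GSTU7 with GSTU6 at both 12618938 and 12619884, and of GSTU1 with GSTU2. Counting any protein-coding gene, 8 of 11 sites (72.7%) had 2 or more genes in the window, against 45.1% of sites near other genes only. GSTU2, GSTU25 and GSTU7 had no site that another member did not share. When each site was given to its nearest gene only, 9 members kept a site, and GSTU2 lost its own. How reads that fit several similar copies were placed is not given in the sources used here, so the division of signal among neighbouring tau genes is uncertain.

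Genes that make, recycle or use glutathione in other ways were set beside the family. Of 41 such genes listed by symbol, 7 were near a reproducible site (17.1%), against 14.0% of all genes, 17 near a replicate 1 summit (41.5%, against 28.1%) and 11 near a replicate 2 summit (26.8%, against 19.6%). None of the 41 genes held a site inside the gene, where 3.52% of all genes did. Summits of replicate 1 lay inside 4 of them (9.76%, against 7.74%), and summits of replicate 2 also inside 4 (9.76%, against 6.31%). GSH1, which encodes the first enzyme of glutathione synthesis and is also known as ROOT MERISTEMLESS 1, had a site at 1002 bp with scores of 37.5 and 16.6, while GSH2, the second enzyme of the pathway, was near no summit. Among 8 glutathione peroxidase genes GPX3 had a site at 981 bp with scores of 50.6 and 30.1, and GPX2 one at 62 bp with scores of 10.9 and 4.84. GGT2, a gamma-glutamyl transpeptidase gene of glutathione breakdown, lay 508 bp from a site scoring 41.0 and 18.8.

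The remaining 3 of these were GSTZ1, the zeta-class gene of tyrosine breakdown, at 1164 bp, the phytochelatin synthase gene PCS2 at 1161 bp, and TGA1 at 301 bp with scores of 18.7 and 14.2. TGA factors are bZIP proteins known to bind the as-1 element found in promoters of several glutathione transferase genes, and 1 of the 7 listed was near a site. Of 10 genes of other transferase classes 1 was near a site, and of 3 vacuolar conjugate pump genes 0 were. With 14.0% of all genes near a site, these counts do not stand apart from the background. None of the 41 genes was near a Col-0 summit.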

How the data were processed

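Anti-GFP ChIP-seq of root meristem tissue was analysed from 4 summit lists, 2 of ARR12-GFP and 2 of Col-0. The 4 input libraries were not used here. MACS2 2.1.0, Bowtie 1.1.1, FastQC 0.11.2 and SAMtools are named with build TAIR10, per the submitters' processing notes. Of the settings of the peak caller and of reads that fit several places, the sources used here say nothing. In each deposited list the authors give 1 summit per peak with a −log10 score, made from either a p-value or a q-value without saying which. Consecutive peak names show that peaks were called per library. Read depth is unknown from these lists.

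Genes came from the RefSeq table of assembly TAIR10.1, which gives extents without strand or sequence. Only distances to genes are printed. Its fit to the summits was checked by moving the replicate 1 summits: 29.2% lay inside protein-coding genes unmoved, 31.7% and 32.6% after moves of -200 and 200 bp, and 57.9% and 57.4% after moves of -2000 and 2000 bp.

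Summits of both ARR12-GFP libraries on the 5 nuclear chromosomes were chained where neighbours lay within 200 bp. Each chain with summits of both libraries was a site, placed midway between the best of each. Sites within 200 bp of a Col-0 summit were removed, 71 of 3574. The code was tested on simulated lists. Members and lists were chosen with earlier results of these data known, so the counts are described and not tested. By rule, the named genes are those with a reproducible site, those with summits of 1 library or of both unlinked, those at the limits, and neighbours nearer to a site than a member. Genes named outside it (MTPB1, ATGSTF13, GSH2 and members with no summit nearby) were chosen after their values were seen. The other glutathione genes were listed by symbol: 2 of 45 symbols had no match (TCHQD and GGCT2;3), GHR1 belonged to an unrelated gene, and GSTT1 was already a member. The planned motif, strand and protein comparisons were not run, since no sequence was used here. Python 3.11.15, NumPy 2.4.6 and matplotlib 3.10.9 were used.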

Additional observations from a re-analysis of the deposited data

How the results depend on the processing

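No paired analysis was possible because the counts come from no test and a count per library uses no replicate number. Of 99 alternative values, 68 stayed within 1.5 times the main one, but some of these could not move. The count of members near a Col-0 summit was 0 at each setting, since none lay nearer than 14739 bp. The share of tau and phi genes with a reproducible site lay above that of all genes under each of the 13 processing alternatives: 12.2% against 3.52% with a site inside the gene, 19.5% against 8.50% with 500 bp searched, 36.6% against 20.4% with 3000 bp, 14.6% against 7.62% with only summits at or above their list's median score, 19.5% against 11.2% with summits linked within 100 bp and 31.7% against 15.9% within 500 bp. The family was chosen on these same summits, so these shares are no separate support. Changing the Col-0 removal or leaving out a Col-0 library could not alter the number of members with a site, as no Col-0 summit was near one. Without the array from GSTU7 to GSTU1 the share was 14.7%, near the 14.0% of all genes. That share pools the classes, and the genes with a site were all tau genes.

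With a site required inside the gene, 5 members, all of them tau genes, had one, as did 0 other glutathione genes and 966 of all genes; no site was then shared (0), and 7 and 9 members held a summit of ARR12-GFP replicates 1 and 2. With 500 bp searched, 0 sites were shared, and 2 other glutathione genes and 2334 of all genes had a site. With 3000 bp, 1 phi gene had a site and 9 sites were shared. With only summits at or above their list's median score, 6 members (6 tau genes) had a site, 1 site was shared, 2091 of all genes had a site, and 9 and 11 members were near a summit of replicates 1 and 2. The share of all genes near a summit of 1 library was not counted at that setting. With summits linked within 500 bp, 2 phi genes had a site through the same pair of summits, where 15.9% of all genes had one. With the nearest gene only, 2 other glutathione genes had one, and sites could not be shared. Leaving out each library in turn gave 10 to 19 members, 0 to 5 phi genes, 4 to 11 shared sites, 7 to 17 other glutathione genes and 3849 to 7633 of all genes. Without an ARR12-GFP library, each summit of the other one away from Col-0 summits counted as a site, with no linking, which is a looser definition. The cause of these moves was not tested beyond the change of setting itself. Counting neighbouring members within 10 kb as 1 locus gave 5 of 21 loci. Leaving out the array from GSTU7 to GSTU1 gave 5 of 34 members, the 14.7% above. Both settings were chosen after seeing the data. Linking and Col-0 removal do not enter the counts per library. The planned motif alternative was not run, as no promoter sequence was used here. Because read depth is unknown, a gene without a summit is not shown to be unbound.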
